A study of Homo sapiens with 6 samples.

Results

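The cytochrome P450 family was read in HepG2 cells, a human liver cancer cell line, in which the miR-23a or the miR-27a gene had been edited. Members were the rows of the expression table whose symbol is CYP, a number, a single letter and a number, without *CYP51A1*, and there were 44 of them among 20026 genes. P450 enzymes are haem proteins that insert an oxygen atom into their substrates with electrons supplied by a reductase or a ferredoxin. Some clear drugs and other foreign compounds, while others make or remove bile acids, steroid hormones, vitamin D, retinoic acid and fatty acid messengers. The liver is the main site of drug oxidation, and HepG2 cells are known to keep only part of the drug-metabolising set of an adult hepatocyte.

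RNA-seq had been done on 6 libraries in 3 groups of 2, all from HepG2 cells. The control group (Scr, labelled WT) came from colonies that had received the Cas9 plasmid without a guide, and the groups miR-23a KO and miR-27a KO came from CRISPR/Cas9 colonies grown after single-cell sorting, as the paper describes them. The deposited design text speaks instead of HepG2 cells separated by miR-23a and miR-27a activity, and the labels call the cell type triple-negative. The titles and the paper were followed here, and what the groups contrast depends on that reading. By the published qPCR of such clones, editing at miR-23a also lowered miR-27a-3p and miR-24-3p and left their 5p forms, while editing at miR-27a also lowered both forms of miR-24, slightly raised miR-23a-3p and lowered miR-23a-5p, so neither group lacks a single miRNA alone. The labels do not say whether the 2 libraries of a group are separate clones or cultures, so each p-value measures only the spread between libraries. The miRNA genes have no row in the table and were not analysed here, so labels alone assign the libraries to groups.

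Each deposited value was an expected read count per gene, although the authors' columns carry the name FPKM. Depth was 14891283 and 14405247 counts in the Scr pair, 16515266 and 15930762 in the miR-23a KO pair and 15850575 and 15947316 in the miR-27a KO pair. P450 genes held 0.0723% and 0.0735% of the counts in the Scr libraries. The miR-23a KO pair had 0.0714% and 0.0507%, and the miR-27a KO pair 0.0566% and 0.0563%. The family was thus a small fraction of each library, and its weakest members rested on a handful of reads.

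The mature miRNAs at the edited genes are shown because their seeds set which letters to look for in the P450 transcripts. Both lie on the minus strand of chromosome 19 in the RefSeq annotation of build GRCh38.p14, miR-23a-3p at chr19:13836595-13836615 and miR-27a-3p at chr19:13836447-13836467. Capitals mark the seed, bases 2 to 8. The seeds of the pair differ in a single base, U in miR-23a-3p and G in miR-27a-3p.
miR-23a-3p: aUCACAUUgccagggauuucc
miR-27a-3p: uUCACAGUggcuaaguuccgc

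The letters that pair with these seeds, AATGTGA for miR-23a-3p and ACTGTGA for miR-27a-3p, were searched on the transcript strand in the longest 3′-UTR that GENCODE release 29 gives for a gene. The miR-23a-3p letters were present in 5 of the 44 members (11.4%) and in 3072 of 15889 genes with a 3′-UTR (19.3%). The miR-27a-3p letters were present in 4 members (9.09%) and in 2654 of the genes (16.7%). Neither set of letters was more frequent in the family than in genes at large. The matches in members with enough reads to be tested are printed with 11 bases on either side and the match in capitals. *CYP4F2* and *CYP4F3*, neighbouring genes of similar sequence, carry the same stretch, which is printed once. A match describes the letters and does not show that a miRNA binds there.
CYP3A5 (miR-23a-3p): agtgtgtggtaAATGTGAgtgtttcacag
CYP19A1 (miR-23a-3p): agataactgtaAATGTGAcattgatttgc
CYP24A1 (miR-23a-3p): tttattttttaAATGTGAttcctttatgg
CYP39A1 (miR-27a-3p): acattaaattcACTGTGAaggcagcatac
CYP4F2 and CYP4F3 (miR-27a-3p): ggtagcacgacACTGTGAgtgcactaaat

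A member was taken as detected when it reached 10 counts in both libraries of a group. By that rule 25 of the 44 members were detected in at least 1 group, 24 in the Scr pair, 22 in each KO pair, and 20 in all 3 groups. The other 5 were detected in some groups only. *CYP2J2* reached the minimum in miR-27a KO alone and *CYP17A1* in Scr alone, *CYP2B6* and *CYP39A1* missed it in miR-27a KO, and *CYP2D6* missed it in miR-23a KO. Nearest to the minimum from above was *CYP17A1*, with 11.49 counts as the lower value of its best group, and nearest from below were *CYP2U1* and *CYP26A1*, each with 9. Of the 19 undetected members, 15 stayed under 10 counts in every library, and the highest single value was 26.97 counts for *CYP2C19* in 1 miR-23a KO library. All 44 members had a read in at least 1 library.

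Detection differed between the roles of the enzymes. Among xenobiotic and drug enzymes 5 of 14 members were detected, against 6 of 13 fatty acid and eicosanoid enzymes and 3 of 5 bile acid and cholesterol enzymes. All 4 steroid hormone enzymes, 4 of 5 vitamin D and retinoid enzymes and all 3 enzymes without a settled main substrate were detected. Only genes with a row are counted here. Several P450 genes of these roles have none, among them *CYP11B1* and *CYP11B2* of the steroid role and *CYP2A6* of the drug role. The undetected drug enzymes include those that dominate adult liver. *CYP3A4*, the chief drug oxidase of the adult liver, had between 1 and 8 counts, *CYP2C8* had at most 1, and *CYP1A2* and *CYP2E1* had at most 2 and 3.32. *CYP7A1*, which opens the classical route of bile acid synthesis, had at most 2 counts.

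**Figure D1:**
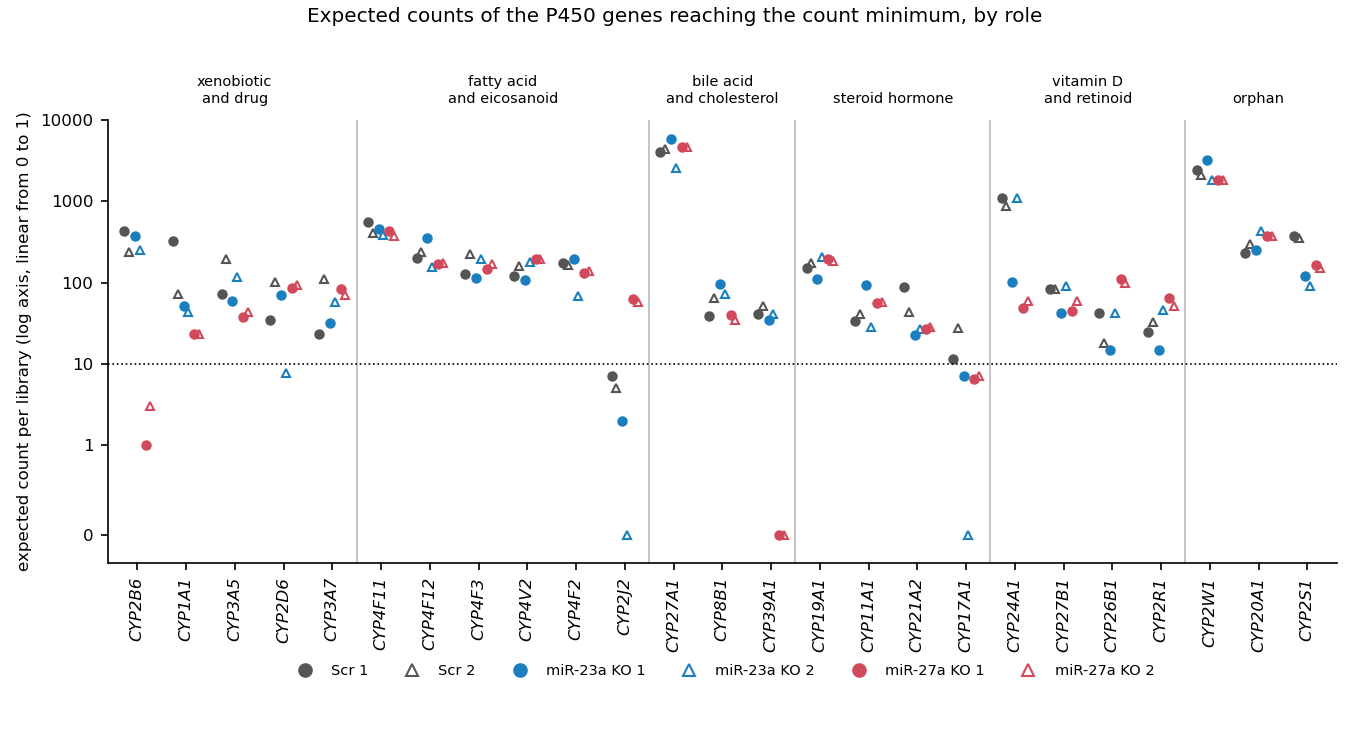
Expected counts of the 25 detected members in each of the 6 libraries, grouped by role, on a symmetric log axis with a dotted line at the minimum of 10 counts. *CYP27A1* and *CYP2W1* lie highest in every library, and *CYP2B6* and *CYP39A1* fall to between 0 and 3 counts in the miR-27a KO libraries.

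Levels were compared between genes as CPM (counts scaled to library size) per kilobase of the longest transcript (CPM per kb). By this scale the highest member in Scr was *CYP27A1* (gene 1593), a mitochondrial sterol hydroxylase of bile acid synthesis, with a mean of 127.0 CPM per kb. *CYP2W1* (gene 54905), known from fetal gut and colon tumours, followed with 65.8 and *CYP24A1* (gene 1591), which breaks down active vitamin D, with 20.8. *CYP4F11* (gene 57834), a fatty acid hydroxylase, had 10.4, *CYP20A1* 9.2 and *CYP2S1* (gene 29785), an enzyme of epithelia outside the liver, 9.03. The Scr libraries of *CYP4F11* (12.1 and 8.72), *CYP20A1* (8.2 and 10.2), *CYP2S1* (9.38 and 8.67) and *CYP2B6* (9.71 and 5.16) overlapped, so the order of these 4 is within their spread. The mean of *CYP2B6* (gene 1555), a drug oxidase, was 7.43. *CYP27A1* and *CYP2W1* were also first and second in both KO groups. *CYP24A1* and *CYP2B6* were ranked 18 and 30 of 44 in miR-27a KO.

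A few genes made up most of the family's reads. Not corrected for length, *CYP27A1* took 37.1% and 42.1% of the P450 counts in the Scr pair, 49.7% and 31.7% in the miR-23a KO pair and 51.4% and 52.2% in the miR-27a KO pair. The 5 members with the most counts in a library held between 77.2% and 86.7%. Summed over the family, the normalised level was 749.0 and 715.5 CPM in the Scr pair, 897.7 and 435.1 in the miR-23a KO pair and 543.6 and 540.8 in the miR-27a KO pair.

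**Figure D2:**
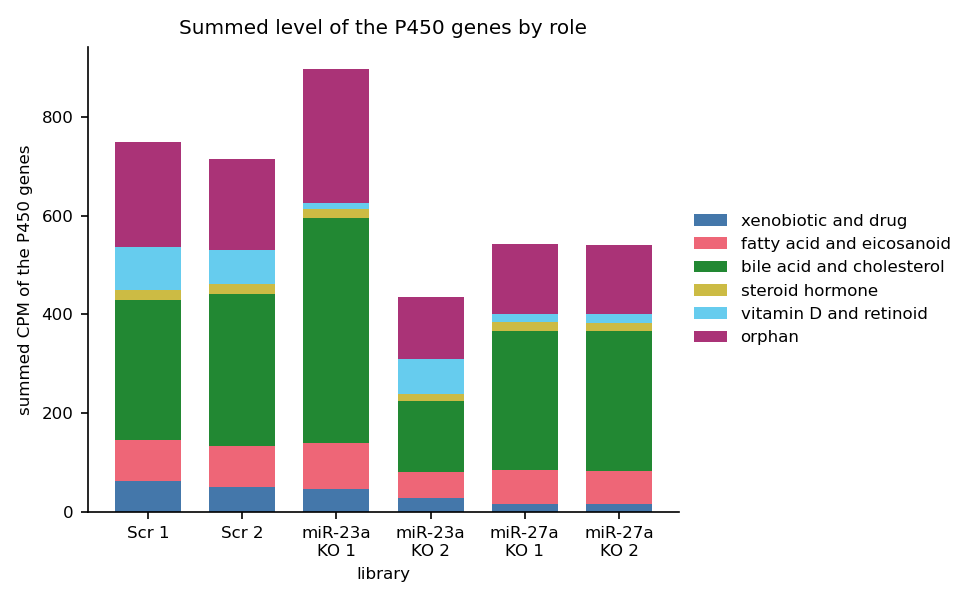
Summed CPM of the family in each library, stacked by role and not corrected for transcript length. Bile acid and cholesterol enzymes, chiefly *CYP27A1*, form the largest block in all 6 libraries, and the summed level of miR-23a KO replicate 1 (897.7 CPM) stands apart from that of replicate 2 (435.1 CPM).

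Summed within roles, xenobiotic and drug enzymes stood at 62.4 and 50.4 CPM in the Scr pair, 45.8 and 27.9 in the miR-23a KO pair and 15.4 and 15.7 in the miR-27a KO pair. Vitamin D and retinoid enzymes stood at 88.0 and 68.9 CPM in the Scr pair, 13.6 and 69.6 in the miR-23a KO pair and 16.8 and 16.6 in the miR-27a KO pair. Enzymes without a settled main substrate stood at 211.9 and 185.4 CPM in the Scr pair, 271.1 and 126.2 in the miR-23a KO pair and 142.7 and 140.8 in the miR-27a KO pair. Steroid hormone enzymes had 19.9 and 19.4 CPM in the Scr pair, 17.8 and 14.0 in the miR-23a KO pair and 17.2 and 16.6 in the miR-27a KO pair. Fatty acid and eicosanoid enzymes had 83.6 and 81.9, 92.9 and 53.6, and 69.5 and 66.6 CPM in the same order. Bile acid and cholesterol enzymes had 283.3 and 309.4, 456.4 and 143.9, and 281.9 and 284.5 CPM, so that all other libraries fell between the miR-23a KO replicates. The miR-27a KO libraries lay below both Scr libraries in 5 of the 6 roles, all but the last, and these sums were not tested. Single genes can carry such a sum, as *CYP24A1* did with 76.8 and 58.7 CPM in Scr and 2.97 and 3.55 in miR-27a KO. Of the 4 vitamin D and retinoid enzymes tested, 2 had a positive log2 fold change in miR-27a KO and 2 a negative one. The 4 steroid hormone enzymes also split into 2 and 2.

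Replicates differed unequally between the groups, which decides what each comparison can show. The 2 miR-27a KO libraries were nearly alike: none of the 22 members detected there differed over 2-fold between them, against 1.21% of all genes, and the median absolute log2 ratio was 0.11. In Scr, 7 of 24 members differed over 2-fold, against 6.34% of all genes, with a median of 0.38. These 7 were *CYP3A7* (4.57-fold apart), *CYP1A1* (4.53), *CYP2D6* (2.88), *CYP3A5* (2.59), *CYP26B1* (2.4), *CYP17A1* (2.33) and *CYP21A2* (2.08), mostly drug and steroid enzymes. In miR-23a KO, 8 of 22 members differed over 2-fold and the median was 0.84, against 45.9% and a median of 0.92 for all genes. Among these 22, *CYP24A1* was widest apart (7.66-fold), followed by *CYP11A1* (4.74), *CYP4F2* (4.03), *CYP27A1* (3.24) and *CYP4F12* (3.18). Below the minimum in that group, *CYP2D6* had 69.98 and 7.64 counts and *CYP17A1* 7 and 0, both also tested against Scr. *CYP3A5* and *CYP3A7* are similar in sequence, as are *CYP4F2* and *CYP4F3*. So are *CYP2D6* and its relative *CYP2D7*, and *CYP21A2* and its pseudogene. Reads can be hard to assign between such genes. None of these members had a whole count in all 6 libraries, and their values are uncertain. That is not particular to them, since only 7 of all 25 detected members had whole counts throughout.

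**Figure D3:**
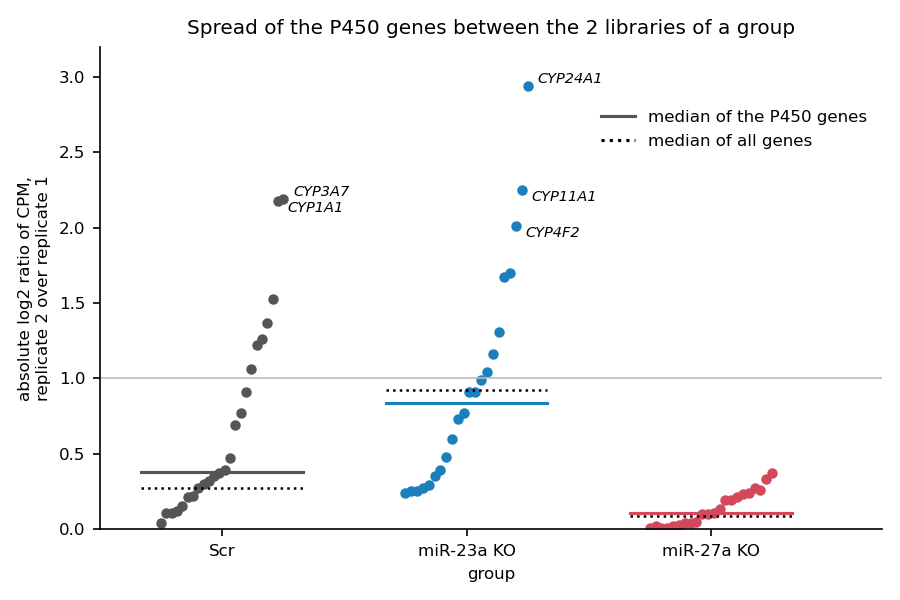
Absolute log2 ratio of CPM between the 2 libraries of each group, a point for each detected member, with the members' median as a solid line, the median of all genes as a dotted line and a line at 1 marking 2-fold. The points stay under 2-fold in miR-27a KO and scatter widely in miR-23a KO, where the members' median is 0.84.

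The comparison of miR-27a KO with Scr asked which P450 genes differ in cells edited at miR-27a, and it moved the most members. *CYP39A1*, *CYP2B6*, *CYP24A1* and *CYP2S1* fell, and *CYP2J2* rose. They come from 5 different roles. A member was called when its fold change exceeded 1.5 with an adjusted p under 0.05 over the 13820 genes tested, of which 25 were members. That made 1 member up (4.0%) and 4 down (16.0%), against 3.52% of all genes up and 6.74% down. At the study's own limit of an adjusted p under 0.001, edgeR called 0 members and 0.0289% of all genes. The paper, which names no tool for its test, reports many more genes at that limit. DESeq2 put *CYP24A1* (adjusted p = 8.23e-60), *CYP2B6* (5.32e-18), *CYP2S1* (9.75e-07), *CYP1A1* (8.16e-06), *CYP39A1* (1.64e-05) and *CYP2J2* (0.000592) under it. The matching share of all genes was not counted for DESeq2. Because the libraries are bulk samples, fewer cells expressing a gene and less RNA per cell cannot be told apart.

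*CYP39A1* (gene 51302), an oxysterol hydroxylase of bile acid synthesis, had 41 and 52 counts in the Scr pair, 35 and 41 in the miR-23a KO pair and 0 and 0 in the miR-27a KO pair. Its reads were absent from the miR-27a KO libraries and present in the 4 others. Against a floor of 3 counts over the group, it was at least 35.2-fold lower than in Scr (adjusted p = 0.0134, edgeR quasi-likelihood F test with Benjamini-Hochberg adjustment). *CYP27A1*, the leading enzyme of the same role, had 3990 and 4456 counts in the Scr pair and 4608.79 and 4687 in the miR-27a KO pair. Its level was 289.0 ± 16.7 CPM (SD, n = 2) in Scr and 281.0 ± 2.15 in miR-27a KO. Its log2 fold change was -0.05 (SE 0.08), within the spread of the Scr libraries. *CYP8B1*, which sets the share of cholic acid, had 39.24 and 65.12 counts in the Scr pair and 40.3 and 34.55 in the miR-27a KO pair and was not called. The loss in bile acid enzymes was therefore seen in *CYP39A1* and not in the member that carries most of the role's reads.

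*CYP2B6*, induced in liver through the receptors CAR and PXR, had 433 and 237 counts in the Scr pair, 368.86 and 253.78 in the miR-23a KO pair and 1 and 3 in the miR-27a KO pair. Both miR-27a KO libraries lay far under the 4 others, which overlapped each other. Over the groups, 670 counts in Scr stood against 4, a ratio of 190.0 with a 95% counting interval of 73.9 to 700.0 (adjusted p = 0.00552, edgeR quasi-likelihood F test with Benjamini-Hochberg adjustment). This interval and the floors cover counting error only. *CYP1A1* (gene 1543), which oxidises polycyclic aromatic compounds and is induced through the AHR receptor, had 321 and 73 counts in the Scr pair, 52 and 43 in the miR-23a KO pair and 23 and 23 in the miR-27a KO pair. All KO libraries lay below both Scr libraries, but the Scr libraries themselves were 4.53-fold apart. The gene missed the threshold at an adjusted p of 0.0513 by edgeR with Benjamini-Hochberg adjustment. It was called lower by DESeq2 (adjusted p = 8.16e-06), and by edgeR with a replicate block (0.00454), GC content and length corrected (0.0441) or both (0.0009). Median-ratio scaling, no filter and all 6 libraries in 1 fit gave no call (adjusted p = 0.0516, 0.0927 and 0.219, edgeR). The edgeR log2 fold change with all libraries of the pair was -3.29 (SE 0.78). Without Scr replicate 1 the value was -1.82 (adjusted p = 0.0057 by the same edgeR test) and without Scr replicate 2 it was -4.0 (adjusted p = 1.22e-05), while without either miR-27a KO library the adjusted p was 0.0644 and 0.0992. *CYP3A5*, a drug oxidase similar in sequence to *CYP3A7*, had 72.17 and 192.51 counts in Scr against 37.45 and 43.47. It was not called (adjusted p = 0.0667, edgeR with Benjamini-Hochberg adjustment). It was called lower by DESeq2 (adjusted p = 0.00496), with a replicate block, with GC content and length corrected, with both, and without either Scr library, but not without either miR-27a KO library or in the other alternative fits. *CYP3A7*, the fetal liver form, and *CYP2D6* had miR-27a KO libraries between their Scr libraries.

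*CYP24A1* had 1104.55 and 868.72 counts in the Scr pair and 49.04 and 59 in the miR-27a KO pair. Its level went from 67.8 ± 12.8 CPM (SD, n = 2) to 3.26 ± 0.412. It fell by 4.38 on the log2 scale (SE 0.21), or 20.8-fold, with an adjusted p of 0.00204 by the edgeR quasi-likelihood F test with Benjamini-Hochberg adjustment, the lowest among the members. The other enzymes that handle vitamin D were not called. *CYP27B1* (gene 1594), which makes the active hormone, had 83.86 and 83.7 counts in the Scr pair and 45.16 and 58.6 in the miR-27a KO pair, a log2 fold change of -0.88 (SE 0.28) with an adjusted p of 0.0968 (edgeR, Benjamini-Hochberg). The adjusted p was 0.0364 without Scr replicate 2, 0.0546 without Scr replicate 1 and 0.621 and 0.435 without a miR-27a KO library (same edgeR test), and ran from 0.0951 to 0.798 in the other alternative fits. *CYP2R1*, which performs the preceding step in liver, had 24.91 and 33.17 counts in the Scr pair and 64.54 and 51.83 in the miR-27a KO pair and was not called. *CYP26B1* (gene 56603), which clears retinoic acid, had 42 and 18 counts in the Scr pair and 111 and 98 in the miR-27a KO pair. Its level was higher in both KO libraries than in either Scr library, and the adjusted p of 0.0739 missed the threshold (edgeR, Benjamini-Hochberg). It was called higher by DESeq2 (adjusted p = 0.0299), and by edgeR with a replicate block (0.0246), GC content and length corrected (0.0363) or both (0.00459). Median-ratio scaling, no filter and all 6 libraries in 1 fit gave no call (adjusted p = 0.0754, 0.111 and 0.565, edgeR). The edgeR log2 fold change with all libraries of the pair was 1.61 (SE 0.45). Without Scr replicate 1 it was 2.37 (adjusted p = 0.00128) and without Scr replicate 2 it was 1.11 (adjusted p = 0.0111), and without either miR-27a KO library the adjusted p was 0.294 and 0.24, by the same edgeR test.

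*CYP2S1* had 375 and 357 counts in the Scr pair, 121 and 91 in the miR-23a KO pair and 163 and 150 in the miR-27a KO pair. Every KO library was below both controls, and the Scr libraries were close together. In miR-27a KO it fell by 1.41 on the log2 scale (SE 0.15), or 2.66-fold, with an adjusted p of 0.00998 (edgeR quasi-likelihood F test with Benjamini-Hochberg adjustment). Of the other enzymes without a settled substrate, *CYP2W1* had 2437.14 and 2086.36 counts in the Scr pair and 1815.75 and 1812.44 in the miR-27a KO pair. Its log2 fold change of -0.51 (SE 0.11) had an adjusted p of 0.0435 (edgeR, Benjamini-Hochberg), but the difference of 1.42-fold was under the fold limit. The value was -0.63 without Scr replicate 2 (adjusted p = 5.58e-05), which is over it, and -0.36 without Scr replicate 1 (adjusted p = 0.00105), both by edgeR. With GC content and length corrected it was -0.21 (adjusted p = 0.142), and without either miR-27a KO library the adjusted p was 0.298 and 0.338. *CYP20A1* had 234 and 300 counts in Scr and 375 in each miR-27a KO library, and was not called.

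*CYP2J2* (gene 1573), an epoxygenase that turns arachidonic acid into epoxyeicosatrienoic acids, was the member that rose. It had 7 and 5 counts in the Scr pair, 2 and 0 in the miR-23a KO pair and 62 and 58 in the miR-27a KO pair. The miR-27a KO libraries stood above all others, and the gene was tested only because it was high there. Its log2 fold change was 3.11 (SE 0.41), 8.63-fold, with an adjusted p of 0.015 (edgeR quasi-likelihood F test with Benjamini-Hochberg adjustment). The remaining fatty acid enzymes were not called. *CYP4F11* had 551 and 408 counts in the Scr pair and 434 and 370 in the miR-27a KO pair, a log2 fold change of -0.44 (SE 0.20) with an adjusted p of 0.195 (edgeR, Benjamini-Hochberg). Its value was -0.66 (adjusted p = 0.00344) without Scr replicate 2 and -0.18 (adjusted p = 0.307) without Scr replicate 1, and without either miR-27a KO library its adjusted p was 0.441 and 0.712 (same edgeR test). *CYP4F2* and *CYP4F12*, fatty acid hydroxylases of the same cluster, had log2 fold changes of -0.51 (SE 0.18) and -0.56 (SE 0.17), and *CYP4F3* and *CYP4V2* had -0.31 and 0.31.

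The steroid hormone enzymes gave no call in miR-27a KO, with 2 of the 4 at an unadjusted p under 0.05, against 32.2% of all genes, and 0 called by DESeq2. *CYP21A2* (gene 1589), a hydroxylase of cortisol and aldosterone synthesis, had 87.77 and 43.38 counts in the Scr pair and 27.18 and 28.07 in the miR-27a KO pair, and *CYP17A1* (gene 1586), which leads towards androgens, had 11.49 and 27.52 against 6.5 and 7. Both had miR-27a KO libraries below Scr, with log2 fold changes of -1.44 (SE 0.45) and -1.74 (SE 0.63) and adjusted p-values of 0.0975 and 0.128 by edgeR with Benjamini-Hochberg adjustment. *CYP21A2* was at -1.88 (adjusted p = 0.00234) without Scr replicate 2 but at -0.80 (adjusted p = 0.144) without Scr replicate 1, in the same edgeR test. *CYP17A1* was at -2.24 (adjusted p = 0.0224) without Scr replicate 1 but at -0.95 (adjusted p = 0.313) without Scr replicate 2. Without a miR-27a KO library the adjusted p-values were 0.392 and 0.401 for *CYP21A2* and 0.549 and 0.51 for *CYP17A1*. *CYP19A1*, the aromatase that makes oestrogens, was the steadiest of the role with 153 and 175 counts in the Scr pair and 194 and 182 in the miR-27a KO pair. *CYP11A1*, which cleaves the cholesterol side chain, had 34.06 and 40.95 against 56 and 58.

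**Figure D4:**
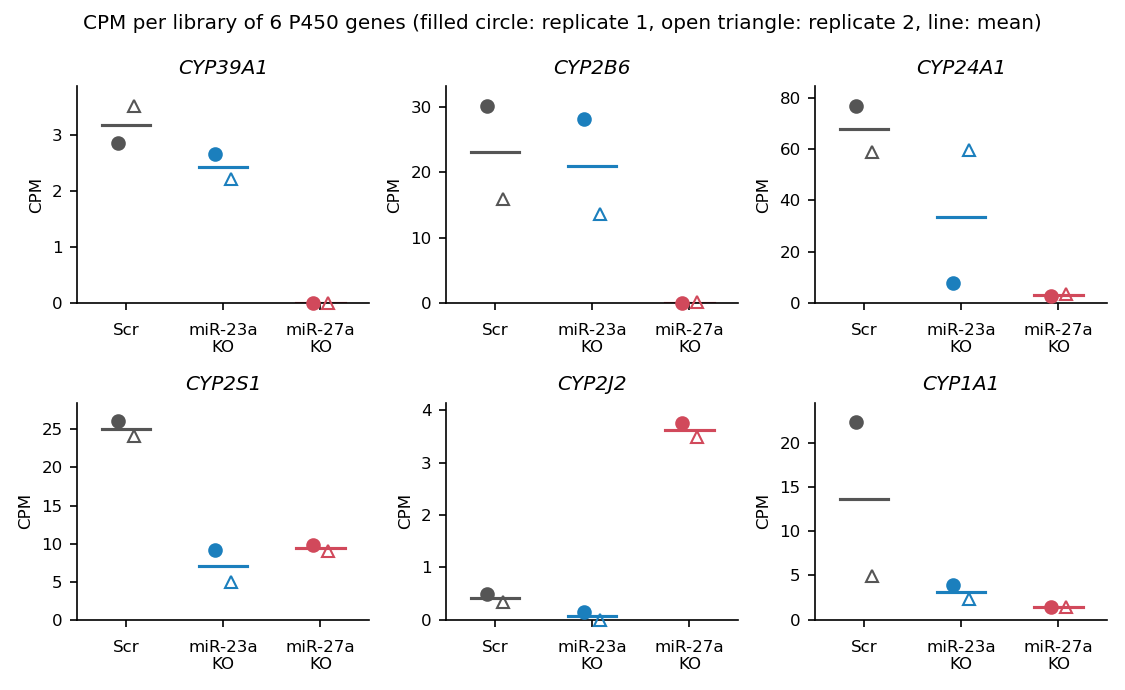
CPM in each library of *CYP39A1*, *CYP2B6*, *CYP24A1*, *CYP2S1*, *CYP2J2* and *CYP1A1*, with a circle for replicate 1, a triangle for replicate 2 and a line at the group mean. *CYP39A1* is at 0 in both miR-27a KO libraries, *CYP2J2* is high in that group alone, and *CYP24A1* has miR-23a KO libraries 7.66-fold apart.

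Most members lay on the low side in miR-27a KO. The libraries of the groups did not overlap for 14 members that were lower (56.0%, against 31.9% of all genes) and 6 that were higher (24.0%, against 32.4%). At an unadjusted p under 0.05 there were 2 members higher and 12 lower, which is 56.0% of those tested against 32.2% of all genes. DESeq2 called 8 members where it called 11.7% of all genes, adding *CYP1A1* and *CYP3A5* as lower and *CYP26B1* as higher. The median log2 fold change of the 25 members was -0.51, also with *CYP39A1* at its bound, against 0.01 for all genes, and -0.35 with GC content and transcript length corrected. The median stayed under 0 with every scaling tried. These counts cover the members that passed the filter on low counts, which include *CYP2J2* because of miR-27a KO and *CYP17A1*, *CYP2B6* and *CYP39A1* because of Scr.

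The 5 calls differ in how firmly they stand. *CYP39A1* and *CYP2B6* were called in each alternative fit, with adjusted p-values between 1.64e-05 and 0.0455 for *CYP39A1* and between 5.32e-18 and 0.028 for *CYP2B6*. When all 6 libraries shared a single estimate of spread, which takes in that of miR-23a KO, *CYP24A1* (adjusted p = 0.178), *CYP2S1* (0.315) and *CYP2J2* (0.261) were no longer called by edgeR with Benjamini-Hochberg adjustment. Over all alternative fits the adjusted p ran from 8.23e-60 to 0.178 for *CYP24A1*, from 9.75e-07 to 0.315 for *CYP2S1* and from 0.000592 to 0.261 for *CYP2J2*. For *CYP1A1* and *CYP26B1*, both short of a call, it ran from 8.16e-06 to 0.219 and from 0.00128 to 0.565. Leaving out miR-27a KO replicate 1 gave 4 calls (2.96% of all genes) and ended that of *CYP2J2* (adjusted p = 0.0743), and leaving out replicate 2 gave 3 (2.34% of all genes) and ended those of *CYP2J2* (0.0753) and *CYP2S1* (0.0757). Leaving out Scr replicate 1 gave 11 calls of 27 members, against 16.0% of all genes, and leaving out Scr replicate 2 gave 15 of 26, against 26.0%, in fits where the lone library is assumed to vary like the other group.

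**Figure D5:**
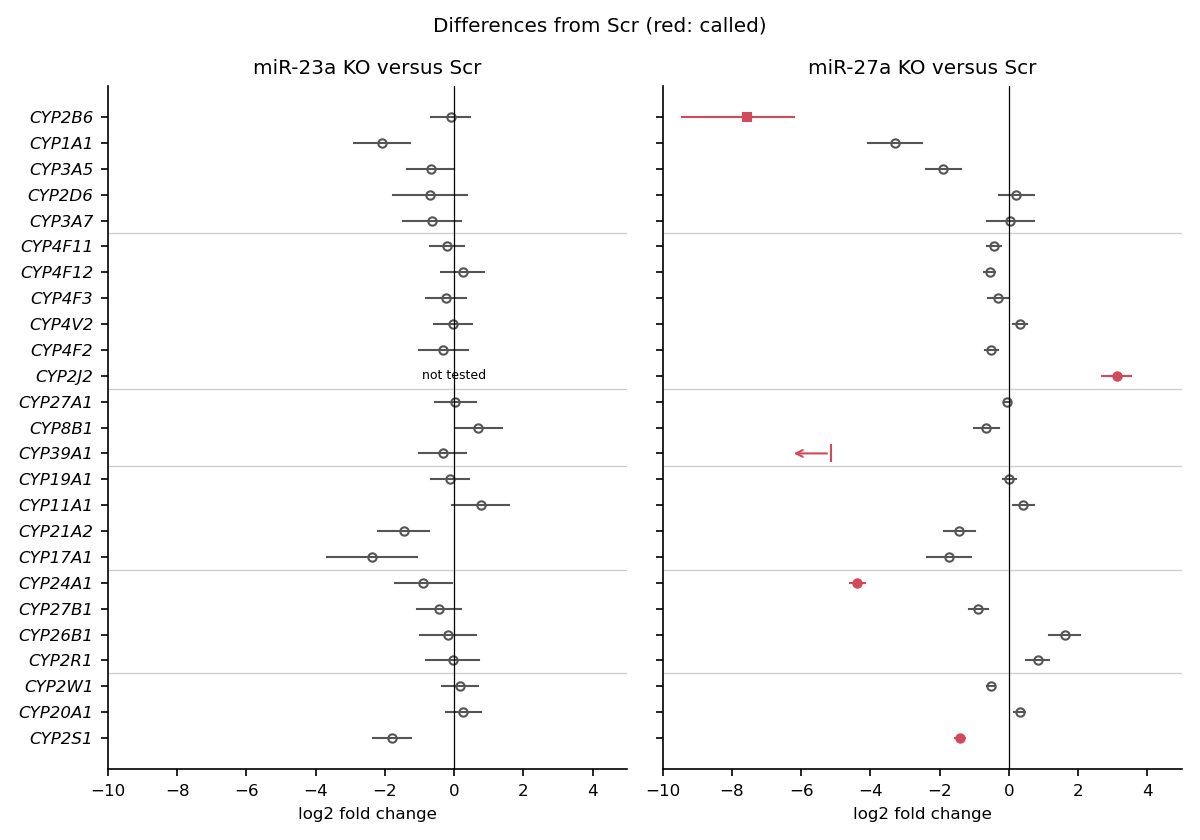
Log2 fold change of each detected member against Scr in each KO group with its standard error, called members in red. *CYP39A1* is drawn as an arrow from its bound, *CYP2B6* in miR-27a KO as the ratio of counts with its 95% interval, and *CYP2J2* was not tested in miR-23a KO.

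The 250 bases before the start of the called members are shown because these genes moved in the same comparison. RefSeq promoter sequences (GRCh38.p14) matched 32 of the 44 members, and 4 of the 5 called ones. *CYP24A1* has no entry. The windows are chr6:46652819-46653068 on the minus strand for *CYP39A1*, chr19:40991032-40991281 on the plus strand for *CYP2B6*, chr19:41192969-41193218 on the plus strand for *CYP2S1* and chr1:59926774-59927023 on the minus strand for *CYP2J2*. Capitals mark matches, on either strand, to TATAAA (the TATA box core), GCGTG (the core bound by AHR), AGGTCA (nuclear receptor half-site) or GTTAAT (HNF1 half-site), and no matches overlap.
CYP39A1: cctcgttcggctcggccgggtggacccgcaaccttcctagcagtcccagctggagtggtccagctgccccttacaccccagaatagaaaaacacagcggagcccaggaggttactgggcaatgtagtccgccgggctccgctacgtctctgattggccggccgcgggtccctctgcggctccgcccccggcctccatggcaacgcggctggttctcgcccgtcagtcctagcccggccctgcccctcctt
CYP2B6: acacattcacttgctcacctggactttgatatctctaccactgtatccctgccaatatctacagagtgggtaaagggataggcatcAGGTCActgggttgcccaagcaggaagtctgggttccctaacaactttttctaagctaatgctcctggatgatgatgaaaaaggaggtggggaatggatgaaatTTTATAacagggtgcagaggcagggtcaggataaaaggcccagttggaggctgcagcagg
CYP2S1: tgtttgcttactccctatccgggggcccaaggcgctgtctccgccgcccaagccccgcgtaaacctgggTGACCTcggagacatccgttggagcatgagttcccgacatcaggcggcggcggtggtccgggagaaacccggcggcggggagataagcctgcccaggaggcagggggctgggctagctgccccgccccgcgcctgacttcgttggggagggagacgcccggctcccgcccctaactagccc
CYP2J2: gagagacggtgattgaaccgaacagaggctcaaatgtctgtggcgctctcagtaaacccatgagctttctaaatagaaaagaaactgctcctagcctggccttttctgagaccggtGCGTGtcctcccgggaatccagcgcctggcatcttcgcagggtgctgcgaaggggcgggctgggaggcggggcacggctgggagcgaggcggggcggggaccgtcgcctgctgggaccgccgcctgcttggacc

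The 4 windows had little in common in these letters. *CYP2B6* held AGGTCA as written, and TATAAA in reverse complement at 55 to 60 bases before the start. *CYP2S1* held AGGTCA in reverse complement and *CYP2J2* held GCGTG as written. The letters of all 4 motifs were absent from the window of *CYP39A1*. Of 27305 promoters of this length, 11.1% held TATAAA, 31.9% GCGTG, 12.1% AGGTCA and 6.22% GTTAAT. Of the 20 detected members with a promoter, 4, 5, 8 and 2 did so. GC content was 48.0% in *CYP2B6*, 63.2% in *CYP2J2*, 67.6% in *CYP39A1* and 69.6% in *CYP2S1*, around a median of 58.0% for all promoters. A match is a description of letters, and nothing was measured at these sites.

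Called members were mostly not neighbours. In the gene order of RefSeq (GRCh38.p14), 24 members lay in 7 runs with at most 5 protein-coding genes between neighbours, and 20 lay alone. *CYP2B6* and *CYP2S1* form a run on chromosome 19 and both fell in miR-27a KO. The other run of that chromosome holds *CYP4F22*, *CYP4F3*, *CYP4F12*, *CYP4F2* and *CYP4F11*, of which 4 were detected and 0 called. *CYP39A1*, *CYP24A1* and *CYP2J2* lie alone on other chromosomes. Whole runs were undetected, as were the 4 members of the *CYP2C* run on chromosome 10 and the 5 of the *CYP4A* run on chromosome 1.

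Calls cannot tell the members with these letters from other genes, since 0 of 13786 genes were called in miR-23a KO and 3.52% were called upward in miR-27a KO. In miR-27a KO, *CYP39A1* fell, *CYP3A4* had too few reads to be tested, and *CYP4F2* and *CYP4F3* had log2 fold changes of -0.51 (adjusted p = 0.133) and -0.31 (adjusted p = 0.518) by edgeR with Benjamini-Hochberg adjustment. In miR-23a KO, the log2 fold change was -0.89 (SE 0.83) for *CYP24A1*, -0.67 (SE 0.68) for *CYP3A5* and -0.13 (SE 0.55) for *CYP19A1*, each with an adjusted p of 1.0 (edgeR, Benjamini-Hochberg).

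The comparison of miR-23a KO with Scr asked the same of cells edited at miR-23a, and no P450 gene passed the test. In a fit whose coefficient of variation between replicates was 0.446, 0.0% of 13786 genes were called in either direction, and 0 of the 24 members tested. At an unadjusted p under 0.05 there were 2 members (8.33%), both lower, against 2.41% of all genes, and DESeq2 called 0 members and 0.457% of all genes. The members were *CYP2S1*, with a log2 fold change of -1.79 (SE 0.55), and *CYP1A1*, with -2.07 (SE 0.81), each with an adjusted p of 1.0 by edgeR with Benjamini-Hochberg adjustment. With a library left out, the value ran from -2.31 to -1.45 for *CYP2S1* and from -2.78 to -0.63 for *CYP1A1*. Both had the 2 miR-23a KO libraries below the 2 Scr libraries. Both comparisons use the same Scr libraries, so the low values of *CYP2S1* and *CYP1A1* in the 2 KO groups are not independent.

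Among the 24 members tested, groups did not overlap for 6 that were lower in miR-23a KO (25.0%, against 14.9% of all genes) and for 0 that were higher (against 8.87%). Besides *CYP2S1* and *CYP1A1*, these were *CYP17A1*, *CYP21A2*, *CYP27B1* and *CYP39A1*. Of these, *CYP17A1* passed the filter on low counts only because of Scr. Among members with too few reads to be tested, *CYP2C19* was higher without overlap, and *CYP2J2*, *CYP26A1*, *CYP2U1* and *CYP4X1* were lower. These rest on few counts, such as 1 and 2.85 in Scr against 0 and 0 for *CYP4X1*. The shares above cover tested genes only, so no conclusion is drawn from the untested members. *CYP17A1* had 7 and 0 counts and *CYP21A2* had 22.35 and 26.74, with log2 fold changes of -2.37 (SE 1.30) and -1.46 (SE 0.73). With a library left out these ran from -7.4 to -1.31 and from -1.9 to -0.86. The lowest value of *CYP17A1* rests on the miR-23a KO library with 0 counts. For *CYP27B1* and *CYP39A1* the log2 fold change was smaller than its error, at -0.43 (SE 0.64) and -0.33 (SE 0.67). *CYP2J2* had too few reads to be tested, with 12 counts over Scr and 2 over miR-23a KO, a ratio of 6.52 with a 95% counting interval of 1.45 to 60.0. The median log2 fold change of the 24 members was -0.23, against 0.16 for all genes.

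Here the value of a member often depended on which library was read. *CYP24A1* had 102.27 and 1107.6 counts in the miR-23a KO libraries, so that replicate 1 was far below Scr and replicate 2 level with it. Without replicate 2 its log2 fold change was -3.12 (adjusted p = 0.001), while no other fit called it, with adjusted p-values from 0.854 to 1.0 where all libraries were used. *CYP27A1* had 5865 and 2557 counts, on either side of Scr, and went from -1.03 (adjusted p = 0.0413) without replicate 1 to 0.63 (adjusted p = 0.0464) without replicate 2. *CYP2W1*, with 3192.98 and 1823.64 counts, was at 0.65 (adjusted p = 0.0438) without replicate 2 and -0.62 (adjusted p = 0.105) without replicate 1. *CYP2S1* kept its direction, at -2.31 (adjusted p = 0.029) without replicate 1 and -1.45 (adjusted p = 0.0164) without replicate 2. These left-out fits by edgeR with Benjamini-Hochberg adjustment called 2 of 28 members without replicate 1, against 4.12% of all genes, and 4 of 27 without replicate 2, against 18.6%. Without Scr replicate 1 or 2 they called 0 members, and 0.028% and 0.0625% of all genes.

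The comparison of the KO groups with each other tested whether P450 levels differ between them, and 0 of 24 members were called. Neither was any of the 13841 genes tested (0.0% in each direction). At an unadjusted p under 0.05 there were 3 members higher in miR-23a KO and 2 lower, 20.8% of those tested against 8.72% of all genes. Among them, *CYP2B6*, *CYP39A1* and *CYP2J2* passed the filter on low counts only through the KO group where they were high. That share therefore only describes the members that passed, and no conclusion is drawn from it. DESeq2 called 4 members, *CYP2B6*, *CYP24A1*, *CYP39A1* and *CYP2J2*, where it called 3.45% of all genes. Among the members tested, groups did not overlap for 6 higher in miR-23a KO (25.0%, against 18.7%) and 5 lower (20.8%, against 20.7%). The median log2 fold change of the members was 0.12 beside 0.11 for all genes, and it was -0.06 with a replicate block and -0.08 with that block and GC content and length corrected.

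The lowest adjusted p-values between the KO groups belonged to 3 members called in miR-27a KO. Each was tested only because it was high in 1 group, *CYP2B6* and *CYP39A1* in miR-23a KO and *CYP2J2* in miR-27a KO. *CYP2B6* had 623 counts over the miR-23a KO libraries against 4, a ratio of 163.0 with a 95% counting interval of 63.2 to 599.0 (adjusted p = 0.0961). *CYP39A1*, with 76 counts against 0, had at least 26.4-fold more in miR-23a KO (adjusted p = 0.137). *CYP2J2* had 2 counts against 120, a ratio of 57.5 in favour of miR-27a KO with an interval of 15.6 to 480.0 (adjusted p = 0.173). The reads of these 3 genes were fully separated, and each adjusted p from the edgeR quasi-likelihood F test with Benjamini-Hochberg adjustment was above 0.05, in a fit whose coefficient of variation between replicates was 0.415 against 0.159 for miR-27a KO with Scr. A replicate block called all 3 (adjusted p = 2.16e-10 for *CYP2B6*, 8.04e-05 for *CYP39A1* and 0.00024 for *CYP2J2*, edgeR) and *CYP24A1* (0.0127). The fit of all 6 libraries called *CYP2B6* (0.0132) and *CYP39A1* (0.0271) but not *CYP2J2* (0.0582). Correction for GC content and length alone called only *CYP2B6* (0.0264). Median-ratio scaling or no filter called no member. In the fit without a block, *CYP26B1*, not called in miR-27a KO, came next with a log2 fold change of -1.87 (SE 0.53, adjusted p = 0.374). It was followed by *CYP24A1* with 3.37 (SE 1.04, adjusted p = 0.424), by the same edgeR test. Without miR-23a KO replicate 1 the value of *CYP24A1* was 4.18, and without replicate 2 it was 1.25. *CYP2S1* overlapped between the KO groups, at -0.42 (adjusted p = 0.863, same test). Without miR-23a KO replicate 1 there were 11 calls of 25 members, where 34.2% of all genes were called, and without its replicate 2 there were 15, where 51.4% were. Without miR-27a KO replicate 1 or 2 there was 1 call, against 0.526% and 0.5% of all genes.

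P450 enzymes need electrons and haem, and the genes that supply them were read as lists in miR-27a KO against Scr. Of 9 electron donors, 0 rose and 2 fell, where 3.52% and 6.74% of all genes did, with a median log2 fold change of -0.13. *FDXR*, the ferredoxin reductase of mitochondria, was at -0.69 (adjusted p = 0.0145) and *FDX2*, a ferredoxin known for iron-sulphur cluster assembly, at -0.69 (adjusted p = 0.0431), by edgeR with Benjamini-Hochberg adjustment. *FDX1*, the ferredoxin that supplies mitochondrial P450 enzymes, was at -0.12 and not called (adjusted p = 0.703, same test). *POR*, the reductase for P450 enzymes of the endoplasmic reticulum, had 367.9 and 308.8 CPM in Scr and 278.1 and 281.0 in miR-27a KO and was not called (adjusted p = 0.15, edgeR, Benjamini-Hochberg). Of 12 genes of haem synthesis and breakdown, 0 rose and *UROD*, a decarboxylase of haem synthesis, fell from 148.4 and 154.2 CPM to 89.0 and 87.6 (adjusted p = 0.00847, edgeR, Benjamini-Hochberg). The median of that list was 0.13. At an unadjusted p under 0.05, which 32.2% of all genes had, 5 of the 12 haem genes were higher and 4 lower, and of the 9 electron donors 0 were higher and 4 lower.

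Among regulators of P450 genes, 27 of 28 were tested in miR-27a KO, and 2 rose and 2 fell, against 3.52% and 6.74% of all genes, with a median of -0.20 and 6 higher and 8 lower at an unadjusted p under 0.05. *PPARGC1A*, a coactivator of fasting metabolism, rose by 2.21 on the log2 scale (adjusted p = 0.0374), with 16 and 44 counts in the Scr pair, 0 and 0 in the miR-23a KO pair and 162 and 153 in the miR-27a KO pair. *NR0B2*, a repressor of bile acid synthesis, fell by 1.01 (adjusted p = 0.00875). *NR5A2*, an activator of bile acid genes, had 61 and 118 counts in the Scr pair and 0 and 2 in the miR-27a KO pair, a ratio of 102.0 with a 95% counting interval of 27.7 to 845.0 (adjusted p = 0.0141). These adjusted p-values are edgeR's with Benjamini-Hochberg adjustment, and the partner genes and regulators named here and above were picked after their values were seen. *AHR* itself, the receptor upstream of *CYP1A1*, had 10.9 and 12.9 CPM in Scr and 22.4 and 16.3 in miR-27a KO (adjusted p = 0.0945, edgeR, Benjamini-Hochberg). Whether any regulator acts on a P450 gene here was not tested.

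In miR-23a KO against Scr and between the KO groups, 0 genes of these 3 lists were called by edgeR. The medians against Scr were 0.01 for electron donors, 0.00 for haem genes and -0.14 for regulators, and between the KO groups 0.06, -0.18 and 0.07. At an unadjusted p under 0.05 there were 0, 0 and 2 genes against Scr, both lower, with 2.41% of all genes, and 0, 0 and 5 between the KO groups, with 8.72%. DESeq2 called 0, 0 and 2 against Scr, with 0.457% of all genes, and 0, 0 and 3 between the KO groups, with 3.45%. The regulators tested were 26 and 27. *PPARGC1A*, with 0 counts in both miR-23a KO libraries, was 1 of the 2 that DESeq2 called against Scr and at least 21.7-fold lower there. Of the superfamily genes outside the symbol rule, *TBXAS1* and *CYP51A1* were tested and neither was called in any comparison by edgeR or DESeq2, with 0 at an unadjusted p under 0.05 and medians of 0.10, 0.21 and -0.17, and *PTGIS* has no row.

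Markers of the cells were read beside the P450 genes. The 12 HepG2 markers summed to 35604.7 and 42631.6 CPM in the Scr pair, 35811.3 and 36343.9 in the miR-23a KO pair and 32079.4 and 32082.4 in the miR-27a KO pair, with *ALB* and *SERPINA1* in front in both Scr libraries. Within that list 1 marker rose in miR-27a KO (3.52% of all genes did), *TF* (log2 fold change 1.25, adjusted p = 0.0212), and 3 fell (6.74% of all genes did), *ALB* (-2.59, adjusted p = 0.00538), *AFP* (-4.11, adjusted p = 0.00262) and *FGB* (-2.05, adjusted p = 0.0212), all by edgeR with Benjamini-Hochberg adjustment. Of the adult hepatocyte markers, 7 had a row and 6 were tested. They summed to 912.9 and 1096.7, 1201.1 and 406.1, and 695.3 and 694.9 CPM, mostly from *HPD*, and *TDO2* had at most 1 count. *PCK1* fell, from 70 and 57 counts in Scr to 1 and 1 in miR-27a KO (adjusted p = 0.00701, edgeR, Benjamini-Hochberg). Of the 12 HepG2 markers, 6 had a positive log2 fold change in miR-27a KO against Scr and 6 a negative one, with a median of -0.01. The 6 adult hepatocyte markers tested were all negative, with a median of -0.48. Some hepatocyte genes thus fell in miR-27a KO, as *CYP39A1*, *CYP2B6* and *CYP24A1* did, and others did not. Their part in the P450 results was not tested.

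Lists of markers of other cell types held genes near 0 and genes with many reads. *PTPRC* and *CD3E* of leukocytes reached at most 0.135 and 0.473 CPM in a library, and *COL1A1* of fibroblasts had at most 2 counts. The leukocyte list of 5 summed to 541.3 and 562.7 CPM in the Scr pair, 263.9 and 254.8 in the miR-23a KO pair and 1605.4 and 1666.6 in the miR-27a KO pair. In Scr and miR-27a KO most of it was *LYZ*, which rose by 1.96 on the log2 scale (adjusted p = 0.00204, edgeR, Benjamini-Hochberg). *CD68* had between 70.7 and 161.7 CPM and a log2 fold change of -0.58 in miR-27a KO, under the fold limit (adjusted p = 0.0166, edgeR, Benjamini-Hochberg). The fibroblast list of 6, with 2 rows, summed to 17.5 and 29.3, 29.8 and 19.7, and 5.74 and 5.13 CPM, nearly all *PDGFRB*, which fell (-2.12, adjusted p = 0.0166, edgeR, Benjamini-Hochberg). The endothelial list of 4, with 3 rows, summed to at most 6.84 CPM with *PECAM1* on top and 0 called. The intestine list of 4, with 3 rows, summed to 430.9 and 465.4, 327.9 and 304.1, and 463.0 and 453.0 CPM, mostly *VIL1*, and *CDX2* fell in miR-27a KO (-4.27, adjusted p = 0.00883, edgeR, Benjamini-Hochberg). Over the 6 marker lists in order, HepG2, adult hepatocyte, fibroblast, endothelial, leukocyte and intestine, 0 genes were called by edgeR in miR-23a KO against Scr. Of 12, 6, 1, 2, 3 and 2 tested, 2, 1, 0, 0, 2 and 0 had an unadjusted p under 0.05, against 2.41% of all genes, and DESeq2 called 0 in each, against 0.457%. Between the KO groups edgeR called 0 of the 12, 6, 1, 1, 3 and 3 tested. There 3, 2, 1, 0, 2 and 1 had an unadjusted p under 0.05, against 8.72% of all genes, and DESeq2 called 3, 1, 1, 0, 1 and 1, against 3.45%. *HNF4A* is on both the HepG2 and the regulator list. Their part in the P450 results was not tested.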

How the data were processed

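Single libraries of HepG2 cells were read from the deposited gene table. The authors deposited expected counts per gene under the name FPKM, unscaled for depth or length. This reading rests on the values, whose totals differ and of which 42.6% to 51.0% are whole. The submitters name HISAT, StringTie, Cufflinks and GATK without versions, and the genome build is not given in the sources used here. Counts were rounded, filtered with filterByExpr, scaled by TMM and fitted for each pair of groups by edgeR 4.0.16 (glmQLFit, glmQLFTest, R 4.3.3), with Benjamini-Hochberg adjustment over all genes tested. CPM used TMM factors of all 6 libraries. Intervals of ratios are exact binomial (95%). Members named in full, 13 in all, were those called, the 5 with the highest mean CPM in Scr and, per comparison, the 5 with the largest fold change among non-overlapping groups. Lists covered roles, electron donors, haem, regulators, superfamily genes outside the rule and cell markers. Members and lists were chosen with earlier results of these data known. Choices varied were the scaling (median ratio), the tool (DESeq2 1.42.0), the filter (none), 1 fit of all 6 libraries, a replicate block, loess correction for GC content and length (span 0.5, degree 2), both together, an adjusted p under 0.001, other detection minimums and leaving out each library.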

Additional observations from a re-analysis of the deposited data

Results flagged for a closer look

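*CYP2J2* was singled out because both miR-23a KO libraries lay below both Scr libraries and both miR-27a KO libraries lay above them. It had 7 and 5 counts in the Scr pair, 2 and 0 in the miR-23a KO pair and 62 and 58 in the miR-27a KO pair. The miR-23a KO side was not tested, since the gene had too few reads there, and the opposite movement as such was not tested. Between the KO groups the fitted log2 fold change was -5.62, which rests on 2 counts in miR-23a KO, and its adjusted p of 0.173 missed the threshold (edgeR, Benjamini-Hochberg). Over the alternative fits that adjusted p ran from 9.62e-05 to 0.193.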

How the results depend on the processing

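In miR-27a KO against Scr, 5 members were called, also with median-ratio scaling (10.3% of all genes) and with no filter (4.62%). The count was 8 by DESeq2 (11.7% of all genes), with a replicate block (12.3%), with GC content and length corrected (10.3%) and with both together (12.8%), 2 with all 6 libraries in 1 fit (0.452%), 0 at an adjusted p under 0.001 (0.0289%), and 3 to 15 with a library left out (2.34% to 26.0%). In miR-23a KO against Scr it was 0 in every alternative (at most 0.501% of all genes) except those that left out a library, 0 to 4 (0.028% to 18.6%). Between the KO groups it was 0, also with median-ratio scaling, with no filter and at an adjusted p under 0.001 (0.0% of all genes each), but 4 by DESeq2 (3.45%) and with a replicate block (2.89%), 2 with all 6 libraries (1.54%), 1 with GC content and length corrected (2.13%), 6 with both (8.12%), and 1 to 15 with a library left out (0.5% to 51.4%). Detected members numbered 24 to 28 under other minimums and 25 to 27 with a library left out.

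Signs turned only for members not called in the same comparison. In miR-23a KO against Scr, *CYP2B6* was at 0.15 with GC content and length corrected and 0.13 with the replicate block as well, *CYP27A1* at -0.16 with the replicate block, -0.10 with the correction and -0.11 with both, and *CYP26B1* at 0.10 and 0.01. *CYP27A1* was at 0.20 and 0.21 in miR-27a KO, and between the KO groups at -0.17, -0.36 and -0.39. With a library left out, miR-23a KO against Scr ran from -0.71 to 0.41 for *CYP2B6*, -1.03 to 0.63 for *CYP27A1*, -0.62 to 0.65 for *CYP2W1*, -0.85 to 0.52 for *CYP26B1* and -0.63 to 0.06 for *CYP4F11*. *CYP27A1* ran from -0.10 to 0.02 in miR-27a KO. Between the KO groups the range was -0.20 to 0.02 for *CYP21A2*, -1.03 to 0.67 for *CYP27A1*, -0.16 to 1.15 for *CYP2W1* and -0.24 to 0.50 for *CYP4F11*. The cause was not tested. Of 91 values in miR-27a KO over 13 members, 78 kept their sign and side of the threshold, 8 passed it only under the alternative, 3 no longer did and 2 turned, apart from the 52 values with a library left out, of which 39 kept them, 9 passed, 3 no longer did and 1 turned. Depth limits the members under 10 counts in all groups, which did not pass the filter on low counts.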

Other observations

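*CYP2U1* (gene 113612), a hydroxylase of long-chain fatty acids, was chosen after its values were seen, as an undetected member with reads mainly in Scr. It had 21 and 9 counts in the Scr pair, 0 and 8 in the miR-23a KO pair and 1 and 0 in the miR-27a KO pair, too few to pass the filter with all libraries. It was tested with no filter or with a library left out, and in miR-27a KO only the fit without Scr replicate 2, which keeps the control library with more of its reads, called it. Over the groups Scr stood against miR-27a KO at a ratio of 34.0, with a 95% counting interval of 5.66 to 1390.0. Of the undetected members with reads in every library, *CYP2C19*, a drug oxidase, had between 6.06 and 26.97 counts, *CYP26A1*, which clears retinoic acid, between 5 and 16, and *CYP3A4*, *CYP3A43* and *CYP4B1* at most 8, 9 and 6.46.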
